A study of Homo sapiens with 3 samples.

Results

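The mitotic spindle and kinetochore genes described here are 43 genes that build the spindle, attach chromosomes to it, delay division until every chromosome is attached and cut the cell in 2 at the end. They were found by matching the Ensembl identifiers of the count tables to gene symbols in GENCODE, and 43 of 43 symbols were found among 58302 genes. Total RNA was sequenced from 3 libraries of C4-2, a human prostate adenocarcinoma line derived from LNCaP cells. All 3 libraries were labelled wild type and no treatment was named, so they form 1 group and no comparison between conditions was made. Nothing in the labels told separate cultures from repeat libraries, so any p-value here reflects the spread among 3 libraries, and that spread may be technical. Neuroendocrine lines and depletion of neuropilin-2 belong to the same series and were not analysed here.

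In mitosis, microtubules of the spindle capture each chromosome at its kinetochore, a protein assembly on the centromere. The spindle assembly checkpoint holds back the anaphase promoting complex, a ubiquitin ligase, until all kinetochores are attached. The ligase then marks securin and cyclin B for destruction, separase opens the cohesin rings that hold sister chromatids together, and a contractile ring divides the cell. Many of these genes are known to be transcribed late in the cell cycle under DREAM and the MuvB complex with B-MYB and FOXM1, which bind promoter elements called cell cycle homology regions. In RNA from a whole culture, more cells in the late cell cycle and more RNA per such cell cannot be told apart.

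The libraries held 47513470 to 51200272 reads assigned to genes. Markers of the labelled cell type were high: all 10 prostate epithelial markers were detected, between 81.2 TPM (EPCAM) and 1440 TPM (KLK3), with summed levels of 4238 to 4304 TPM across libraries. TPM, a transcript level, is a count divided by exon length and scaled to the library total, and detected means at least 10 reads in every library. Of 8 neuroendocrine markers 6 were detected, the highest was CHGA at 2.53 TPM, their sum was 5.86 to 7.66 TPM, and NEUROD1 had 0 reads. Of 9 stromal and endothelial markers 2 were detected, with sums of 13.8 to 14.6 TPM led by COL1A1 at 10.2 TPM, and of 9 immune markers 2 were detected, with sums of 2.07 to 2.99 TPM and CD3E, CD3D, MS4A1 and HBB at 0 reads. A count of 0 allows up to 3 reads, or 0.0631 CPM (a count scaled to library size alone) in the smallest library, and 6 reads or 0.126 CPM if both mates of a fragment were counted. These limits cover counting error only.

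All 43 mitotic genes were detected, with 422 to 14312 reads in a library, and 42 of them reached 10 TPM, against 8462 of 19708 protein-coding genes. The median mitotic gene lay at 62.6 TPM and the median protein-coding gene at 5.43 TPM. On the log2(TPM + 0.1) scale the median of the mitotic genes exceeded that of all protein-coding genes by 3.50, 3.57 and 3.46 in replicates 1, 2 and 3, a mean of 3.51 ± 0.0562 (SD, n = 3). Set against detected protein-coding genes alone, the difference was 1.97. Together the 43 genes took 0.414 ± 0.00724% of assigned reads (SD, n = 3) and summed to 3241, 3328 and 3152 TPM. Below, levels are mean TPM ± SD over the 3 libraries.

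The levels spanned 48.4-fold, from CDC20, the activator of the anaphase promoting complex, at 287 ± 6.91 TPM to KIF18A, a kinesin that damps chromosome movement at the spindle equator, at 5.94 ± 0.242 TPM. Ranked among protein-coding genes, CDC20 stood at percentile 98.1, KIF18A at percentile 50.9 and the median mitotic gene at percentile 88.1. Of the 43 genes, 12 reached 100 TPM. That count depends on the denominator, in which the gene RN7SL2 alone took 16.3% of TPM. Over protein-coding nuclear genes each level was about 1.52 times as high. The coefficient of variation between libraries had a median of 4.22%, with PLK1 at 0.328% and TTK at 17.4% as the ends of the range. These values hold for TPM. On the log2 CPM scale used further below, replicate 2 minus replicate 3 was -0.08 for PLK1. Of the 42 pairs of neighbours in the order of levels, 17 had ranges over the 3 libraries that did not overlap and 25 had ranges that overlapped. CDC20, UBE2C and SPC24 were the 3 highest, and each was separated from the next of them by its range. KIF20B, CENPE and KIF18A were separated in the same way at the low end. Such ranges hold the spread between libraries with merged exon lengths, and the order also depends on the length used. With the length of 1 reference transcript per gene (MANE Select), PTTG1 stood at rank 2 (231 TPM) and SPC24 at rank 6 (133 TPM). This setting changed the lengths of all genes with such a transcript and rescaled every level, with reads still those over merged exons. ASPM, at 10887 bases by merged exons and 10863 by that transcript, had 0.675 times its level. A change under this setting therefore holds a factor shared by all genes besides the gene's own length. Exon bases that overlap another gene, where reads were dropped, were found in 17 of the 43 genes, and they exceeded 10% in CENPN (20.1%), KIF22 (13.0%), KIFC1 (12.7%), PLK1 (12.5%) and BUB1B (10.2%).

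**Figure D1:**
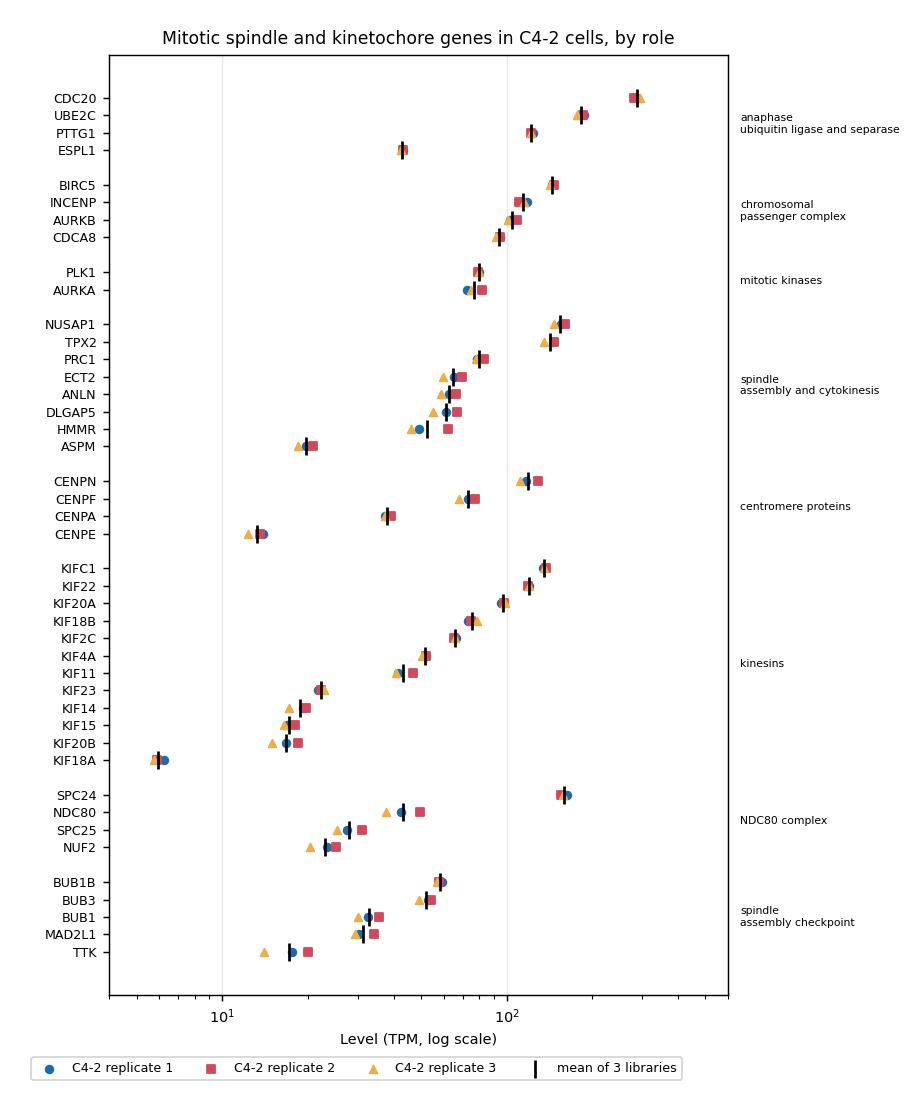
The horizontal log axis gives TPM and each row is a gene, grouped by role with the role named at the right. Symbols are the 3 C4-2 libraries and the black tick is their mean. CDC20 stands highest at 287 TPM and KIF18A lowest at 5.94 TPM, and the 3 libraries of most genes lie close together, with the widest gaps for HMMR, NDC80 and TTK.

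Most promoters of these genes held the letters of a pair of known elements. RefSeq windows on the GRCh38.p14 assembly, from 250 bases before to 50 bases after an annotated start, were matched for 37 of the 43 genes (41 windows, as PTTG1, KIF22, AURKB and ECT2 have 2 each). UBE2C, TTK, TPX2, AURKA, BUB3 and BIRC5 had no entry in the table. The letters of a cell cycle homology region, TTTGAA or TTCGAA on either strand, stood in 31 of 37 genes (83.8%), against 19.5% of 27305 genes with a window and 15.4% of detected protein-coding genes. The letters CCAAT on either strand, those of the box that NF-Y binds, stood in 30 of 37 genes (81.1%), against 39.7% of all genes. Both kinds of letters stood in 26 genes (70.3%), against 9.02% of all genes, and their letters overlapped in 1 window. These shares describe windows of 300 bases. The letters are short, they also occur by base composition, and a match is not evidence that a protein binds there. The median GC content was 62.0% for windows of the mitotic genes, 58.7% for all windows and 64.3% for those of detected protein-coding genes.

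Homology region letters lay close to the annotated start. Their centre fell within 50 bases of it in 28 of 37 mitotic genes (75.7%), against 6.41% of all genes. These shares also count whether the letters occur at all. Among genes with the letters alone, the share was 90.3% for mitotic genes and 32.8% for all genes. Over the 43 matches the median centre was -19 bases from the start, and over 65 CCAAT matches it was -70.5. Matches were counted per window. A site in overlapping windows of ECT2, KIF22, PTTG1 or AURKB therefore entered once for each window, with its distance from that window's start. The 6 genes with a window but without homology region letters were KIF2C, CENPE, KIF20A, PTTG1, AURKB and SPC24, at 13.3 to 159 TPM with a median of 101 TPM. The 31 genes with the letters lay at 5.94 to 287 TPM with a median of 52.5 TPM, so the ranges overlapped. The windows below are those of the highest gene in each of 6 roles whose window holds the letters. They are shown to let the position and spacing of both elements be read, with the homology region letters and the CCAAT letters, read on either strand, in capitals. Each runs 5′ to 3′, and the annotated start follows its first 250 bases.

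CDC20, chr1:43358731-43359030, plus strand: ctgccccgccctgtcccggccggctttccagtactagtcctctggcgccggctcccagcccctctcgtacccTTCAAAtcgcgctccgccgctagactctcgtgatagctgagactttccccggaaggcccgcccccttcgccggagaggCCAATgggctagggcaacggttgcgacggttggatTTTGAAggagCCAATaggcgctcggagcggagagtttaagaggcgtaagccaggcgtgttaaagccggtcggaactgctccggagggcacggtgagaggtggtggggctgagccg
NUSAP1, chr15:41332631-41332930, plus strand: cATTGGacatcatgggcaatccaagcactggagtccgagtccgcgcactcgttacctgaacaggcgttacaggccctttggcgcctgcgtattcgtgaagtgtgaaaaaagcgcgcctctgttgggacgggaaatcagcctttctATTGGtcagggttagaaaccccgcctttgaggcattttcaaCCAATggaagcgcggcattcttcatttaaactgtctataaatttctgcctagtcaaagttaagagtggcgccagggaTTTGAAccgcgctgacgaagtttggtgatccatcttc
KIFC1, chr6:33391573-33391872, plus strand: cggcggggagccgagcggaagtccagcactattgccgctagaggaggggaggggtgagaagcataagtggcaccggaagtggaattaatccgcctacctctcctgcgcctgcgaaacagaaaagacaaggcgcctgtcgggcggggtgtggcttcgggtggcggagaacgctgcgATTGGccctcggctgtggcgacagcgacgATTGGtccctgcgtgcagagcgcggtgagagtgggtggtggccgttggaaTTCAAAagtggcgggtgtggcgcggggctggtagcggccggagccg
CENPN, chr16:81006964-81007263, plus strand: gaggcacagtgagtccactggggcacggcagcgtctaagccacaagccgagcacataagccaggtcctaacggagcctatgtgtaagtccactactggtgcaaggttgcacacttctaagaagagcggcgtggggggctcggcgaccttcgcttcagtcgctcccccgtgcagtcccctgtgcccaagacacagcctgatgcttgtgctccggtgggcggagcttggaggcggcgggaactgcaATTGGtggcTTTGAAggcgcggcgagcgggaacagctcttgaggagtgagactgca
INCENP, chr11:62123761-62124060, plus strand: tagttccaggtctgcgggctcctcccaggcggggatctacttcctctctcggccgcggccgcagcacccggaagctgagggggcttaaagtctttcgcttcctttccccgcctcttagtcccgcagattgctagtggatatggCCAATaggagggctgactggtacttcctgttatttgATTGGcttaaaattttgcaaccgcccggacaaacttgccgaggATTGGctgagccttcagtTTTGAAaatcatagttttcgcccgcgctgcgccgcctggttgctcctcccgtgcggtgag
PLK1, chr16:23678639-23678938, plus strand: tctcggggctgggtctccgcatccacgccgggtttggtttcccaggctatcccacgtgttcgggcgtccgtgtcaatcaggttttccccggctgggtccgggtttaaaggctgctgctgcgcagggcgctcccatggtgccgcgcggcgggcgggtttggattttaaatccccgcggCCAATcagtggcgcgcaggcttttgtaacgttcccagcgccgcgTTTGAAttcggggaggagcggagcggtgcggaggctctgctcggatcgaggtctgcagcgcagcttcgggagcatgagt

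In the CDC20 window the homology region letters were centred -175 and -62 bases from the start, and a CCAAT box followed the nearer of them at -52.5. In PLK1 they were centred at -26 and in INCENP at -7. In NUSAP1, KIFC1 and CENPN the letters fell just past the start, at 16, 7 and 6 bases. All 6 windows held CCAAT letters, with 3 matches each in NUSAP1 and INCENP, 2 each in CDC20 and KIFC1, and 1 each in CENPN and PLK1.

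**Figure D2:**
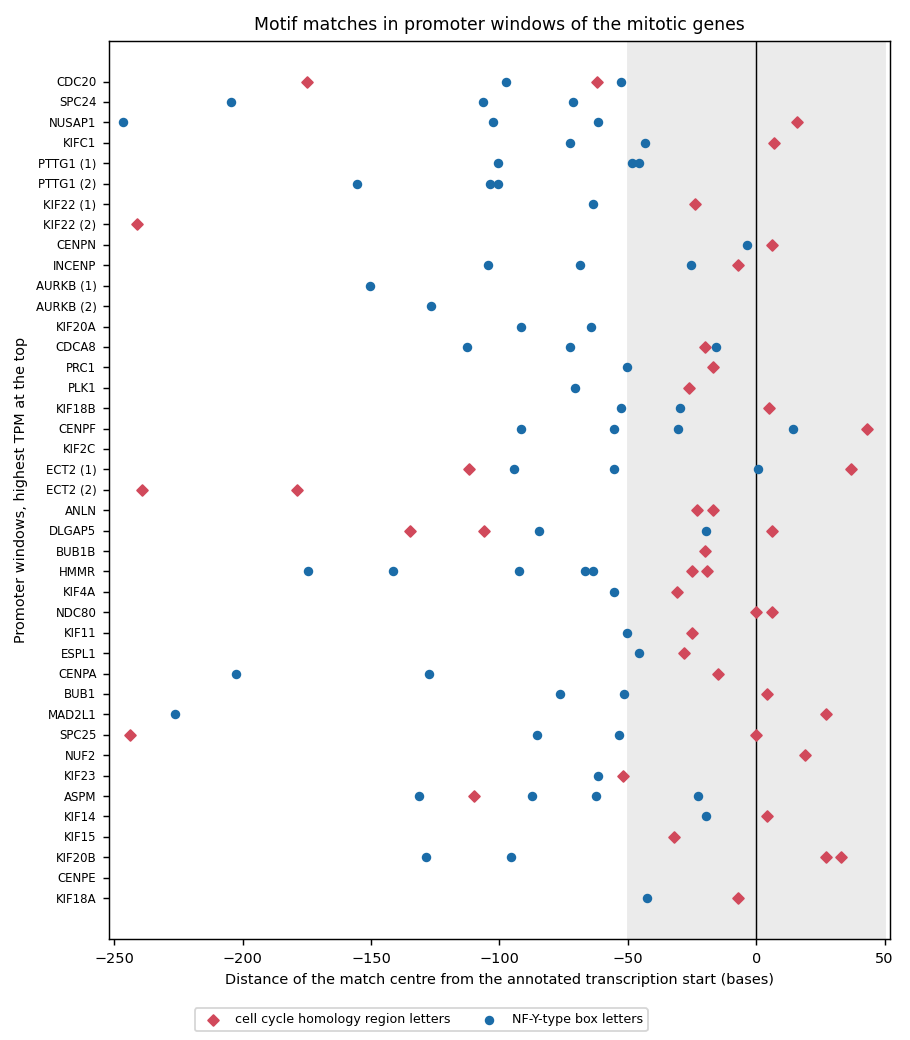
Each row is 1 promoter window of a mitotic gene, with the highest TPM at the top, and the horizontal axis gives the distance of a match centre from the annotated start in bases. Red diamonds are cell cycle homology region letters and blue points are the letters of the box that NF-Y binds. Of the 43 diamonds, 32 fall in the grey band within 50 bases of the start, and the blue points are centred at a median of -70.5 bases.

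Homology region letters were also counted in related lists. Their share was 69.2% among mitotic entry genes, 57.1% among cohesin and condensin genes, 52.9% among other kinetochore and checkpoint genes and 36.4% among other spindle genes. It was 29.4% in the anaphase promoting complex and 25% in the constitutive centromere network. Of 30 DNA replication genes with a window 2 held the letters (6.67%), and 60.0% of those 30 genes held CCAAT letters.

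Regulators of anaphase onset were the most abundant role, with a median of 152 TPM over 4 genes. CDC20, which the checkpoint keeps from activating the ligase, had 286, 281 and 295 TPM in replicates 1, 2 and 3. UBE2C, the enzyme that hands the first ubiquitin to the ligase's substrates, had 186, 186 and 176 TPM and averaged 183 ± 5.61. PTTG1, which encodes securin, the inhibitor of separase, had 123, 122 and 121 TPM (122 ± 1.01). ESPL1, which encodes separase, had 43.1, 43.1 and 42.5 TPM (42.9 ± 0.353), below securin in every library. The ratio of PTTG1 to ESPL1 was 2.85 ± 0.0237 with merged exon lengths (SD, n = 3) and 5.96 ± 0.0497 with the MANE Select transcript, the reference transcript chosen for each gene. The securin gene has 2013 merged exon bases and 715 bases in that transcript, so its level depends on which length is used, and it moved from rank 8 to rank 2 of the 43. Processed copies of CDC20, UBE2C and PTTG1 had reads of their own. CDC20P1 had 160, 158 and 162 reads beside 9802, 8823 and 10032 for CDC20, UBE2CP5 had 136, 101 and 103 beside 4022, 3677 and 3785 for UBE2C, and PTTG3P had 12, 12 and 22 beside 4165, 3767 and 4082 for PTTG1. Other mitotic genes have such copies too. AURKAP1 had 5, 13 and 23 reads, MAD2L1P1 had 24, 12 and 8, and CENPNP2 had 4, 6 and 8. Reads that fit gene and copy alike were dropped by the counting, so the levels of genes with a copy are uncertain.

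The 4 genes of the chromosomal passenger complex lay within 1.54-fold of each other, a narrower span than the 3.38-fold to 22.8-fold of the other roles with more than 2 genes. This complex corrects faulty attachments and then steers cytokinesis. BIRC5, which encodes survivin, the subunit that reads a mark on centromeric histone H3, had 144, 146 and 142 TPM (144 ± 2.14). INCENP, the scaffold, had 118, 110 and 115 TPM (114 ± 3.83), AURKB, the kinase, 103, 109 and 101 TPM (104 ± 4.27), and CDCA8, which encodes borealin, 95, 94.6 and 91.4 TPM (93.6 ± 1.99). The order from BIRC5 to CDCA8 was the same in every library, and INCENP and AURKB came closest in replicate 2, at 110 and 109 TPM. With MANE Select lengths INCENP averaged 83.6 TPM and AURKB 127 TPM, in the opposite order. With MANE Select lengths the ratio of BIRC5 to CDCA8 was 2.19 ± 0.0307, against 1.54 ± 0.0215 with merged exons (SD, n = 3).

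The 2 kinases listed outside the passenger complex and the checkpoint, PLK1 and AURKA, had overlapping levels with merged exon lengths. PLK1, which acts in centrosome maturation, kinetochore attachment and mitotic exit, had 79.9, 79.4 and 79.6 TPM (79.7 ± 0.261), and its reads were 6389, 5823 and 6326. AURKA, which matures centrosomes and builds spindle poles, had 72.7, 81.6 and 75.1 TPM (76.5 ± 4.61). Antisense neighbours overlap 12.5% of the exon bases of PLK1, where reads were dropped. With MANE Select lengths PLK1 stood at 118 TPM and AURKA at 74.2 TPM, so their closeness depends on the length used.

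The proteins that assemble the spindle and divide the cell ranged 7.83-fold around a median of 63.8 TPM. NUSAP1, which bundles microtubules near chromatin, lay at 154 ± 7.0 TPM and TPX2, the nucleator and activator of Aurora A, at 142 ± 6.02 TPM. PRC1, which crosslinks the central spindle, lay at 80.0 ± 2.86 TPM. ECT2, the exchange factor that switches on RhoA at the cleavage site, and ANLN, the ring scaffold anillin, lay at 64.9 ± 4.76 and 62.6 ± 3.87 TPM. DLGAP5 (HURP), which stabilises kinetochore fibres, had 61.2, 66.8 and 54.9 TPM. HMMR, which acts at spindle poles with TPX2, had 49.1, 62.3 and 46.2 TPM, with replicate 2 above both others. ASPM, a protein of the spindle pole, was the lowest of the group at 19.7 ± 1.24 TPM.

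Centromere proteins differed 8.95-fold. CENPN, which binds the CENP-A nucleosome, had 117, 129 and 111 TPM (119 ± 9.20), and 20.1% of its exon bases are shared with genes on the other strand, among them CMC2 and CENPN-AS1, so its value is uncertain. With MANE Select lengths for all genes it lay at 72.7 TPM and moved from rank 10 to rank 16. CENPF, a large coiled-coil protein of the outer kinetochore, lay at 72.8 ± 4.62 TPM and had the most reads of the 43 genes, 14312, 13941 and 13311. CENPA, the histone H3 variant that marks the centromere, lay at 37.9 ± 1.03 TPM. CENPE, the motor that carries chromosomes to the spindle equator, lay at 13.3 ± 0.845 TPM, and the ratio of CENPF to CENPE was 5.48 ± 0.234 (SD, n = 3).

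The 4 subunits of the NDC80 complex, the main coupler of kinetochores to microtubules, were far from equal in transcript level. The complex is known to hold each subunit once. SPC24 had 163, 155 and 158 TPM, its partner SPC25 had 27.4, 31.0 and 25.3 TPM, NDC80 had 42.6, 49.5 and 37.5 TPM and NUF2 had 23.3, 25.01 and 20.3 TPM. SPC24 thus lay above the other 3 in every library, by 5.73 ± 0.649-fold over SPC25, 3.72 ± 0.546-fold over NDC80 and 7.0 ± 0.80-fold over NUF2 (SD, n = 3). With MANE Select lengths these ratios were 5.18 ± 0.586, 2.73 ± 0.40 and 5.07 ± 0.580. The ratio of NDC80 to NUF2 was 1.89 ± 0.0804, and 1.87 ± 0.0796 with MANE Select lengths. That of SPC25 to NUF2 was 1.22 ± 0.0402 and turned to 0.979 ± 0.0322 with MANE Select lengths, so their order is not settled.

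Genes of the spindle assembly checkpoint were lower, with a median of 32.7 TPM over 5 genes. BUB1B, which encodes BubR1, a subunit of the mitotic checkpoint complex, had 59.4, 58.0 and 56.8 TPM, and BUB3, its binding partner, had 52.8, 54.1 and 49.1 TPM. BUB1, the kinase that recruits the others to kinetochores, lay at 32.7 ± 2.72 TPM, and MAD2L1, which encodes MAD2, the inhibitor that closes on CDC20, lay at 31.3 ± 2.57 TPM. TTK, the kinase MPS1 that starts the signal, had 17.6, 19.98 and 14.0 TPM. The target of the pathway thus stood well above its inhibitors at the transcript level: CDC20 was 9.23 ± 0.930-fold above MAD2L1, 4.95 ± 0.206-fold above BUB1B and 5.54 ± 0.418-fold above BUB3 (SD, n = 3). These are ratios of RNA levels and say nothing of protein.

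The 12 kinesins, motors that walk along or take apart microtubules, spanned 22.8-fold. KIFC1, which walks to the minus end and clusters centrosomes, and KIF22, which pushes chromosome arms, were the highest at 136 ± 2.03 and 120 ± 0.520 TPM, and with MANE Select lengths they lay at 128 and 167 TPM, in the opposite order. KIF20A, a motor of the central spindle, lay at 97.1 ± 1.52 TPM, and the depolymerising kinesins KIF18B and KIF2C lay at 75.6 ± 2.7 and 65.7 ± 0.590 TPM. KIF4A, which condenses chromosomes and sets the length of the central spindle, lay at 51.5 ± 0.839 TPM. KIF11 (Eg5), the motor that pushes spindle poles apart, had 41.6, 46.9 and 40.7 TPM. KIF15, which can act beside KIF11 in holding poles apart, lay at 17.1 ± 0.776 TPM. KIF23, KIF14 and KIF20B, which act in cytokinesis, lay at 22.2 ± 0.501, 18.7 ± 1.30 and 16.7 ± 1.75 TPM. KIF18A had 6.21, 5.87 and 5.75 TPM from 487, 422 and 448 reads. In each library KIFC1 was 22.8 ± 1.14-fold above it (SD, n = 3).

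Related lists placed these levels among other genes of chromosome division. The median of the 43 mitotic genes, 62.6 TPM, lay near those of cohesin and condensin (64.0 TPM, 16 genes), mitotic entry (70.6 TPM, 16 genes) and DNA replication (72.7 TPM, 33 genes). It lay above those of other spindle genes (35.4 TPM, 23 genes), the anaphase promoting complex and its regulators (33.0 TPM, 17 genes), other kinetochore and checkpoint genes (30.9 TPM, 20 genes) and the constitutive centromere network (19.1 TPM, 15 genes). Every gene of these 7 lists was detected. Their highest members were NCAPD2, a condensin subunit, at 171 TPM, the transcription factor gene MYBL2 at 475 TPM, the sliding clamp gene PCNA at 387 TPM, CKAP5 at 122 TPM, UBE2S at 395 TPM, ZWINT at 172 TPM and CENPX at 322 TPM. Their lowest were STAG1 at 24.5 TPM, LIN9 at 14.1 TPM, GINS3 at 10.7 TPM, HAUS7 at 1.82 TPM, ANAPC10 at 3.83 TPM, BORA at 3.12 TPM and CENPS at 4.15 TPM. Exon bases that overlap another gene made up 64.7% of CENPS, 37.0% of BORA, 35.6% of HAUS7 and 21.2% of STAG1, so these low values are uncertain. Germline relatives, genes of meiosis and testis counterparts of the mitotic genes, had a median of 0.462 TPM with 10 of 16 detected. SYCP3 was the highest of them at 7.86 TPM, and KIF2B, MEIKIN and SPO11 had 0 reads. In MEIKIN 62.1% of exon bases overlap another gene, so its lack of reads is uncertain.

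**Figure D3:**
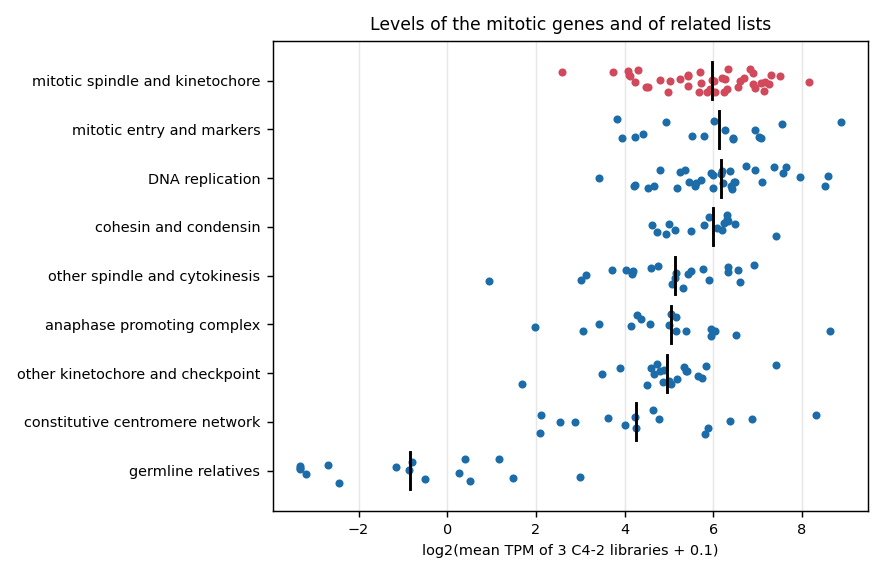
The horizontal axis gives log2(mean TPM + 0.1), each point is a gene and the black bar is the median of its list. The 43 mitotic genes in red have a median of 62.6 TPM, close to those of mitotic entry (70.6 TPM), DNA replication (72.7 TPM) and cohesin and condensin (64.0 TPM), and the germline relatives lie lowest at 0.462 TPM.

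Relatives and partners were compared within each library for 17 pairs on the log2(TPM + 0.1) scale. The difference had the same sign in 3 of 3 libraries for all 17 pairs. The exact two-sided sign-flip permutation p was 0.25 for each, 0.25 after Benjamini-Hochberg adjustment over the 17, and 0.25 is the smallest that 3 libraries allow, so no pair could pass a threshold of 0.05. Several cell division genes stood above a relative with another main role. CDC20 exceeded FZR1, which activates the same ligase later, by 2.79 ± 0.0504 (SD, n = 3). PLK1 exceeded PLK4, the kinase of centriole duplication, by 2.13 ± 0.0291, and KIF2C exceeded KIF2A, which acts at spindle poles and in neurons, by 0.72 ± 0.109. KIF4A exceeded its copy KIF4B by 8.14 ± 0.217, where KIF4B had 6, 4 and 8 reads. PTTG1 exceeded its copy PTTG2 by 5.82 ± 0.501, where PTTG2 had 16, 29 and 27 reads. Values of such copies hold few reads, and reads that fit both copies were dropped.

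Other pairs set mitotic genes against a close relative of similar task. AURKA lay below AURKB, with a difference of -0.45 ± 0.0417, and BUB1 lay below BUB1B at -0.83 ± 0.109 (SD, n = 3). KIF18A lay below KIF18B at -3.65 ± 0.106, and KIF20A above KIF20B at 2.54 ± 0.159. UBE2C, which starts ubiquitin chains, lay below UBE2S, which extends them, at -1.11 ± 0.0431, and MAD2L1 lay below MAD2L2, a factor of DNA repair and of FZR1 control, at -0.81 ± 0.114. Among partners, AURKA lay below its activator TPX2 at -0.90 ± 0.0873 and SPC24 above SPC25 at 2.51 ± 0.168. NDC80 lay above NUF2 at 0.91 ± 0.0610, BIRC5 above INCENP at 0.33 ± 0.0651 and KIFC1 above KIF11 at 1.65 ± 0.0925. PTTG1 exceeded ESPL1 by 1.51 ± 0.0120, and without division by length, as log2 CPM, the difference was -0.63. On that scale MAD2L1 minus MAD2L2 was -0.02 and AURKA minus AURKB was -0.06. With MANE Select lengths these 2 differences were -2.33 and -0.77, so their size depends on the length used.

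**Figure D4:**
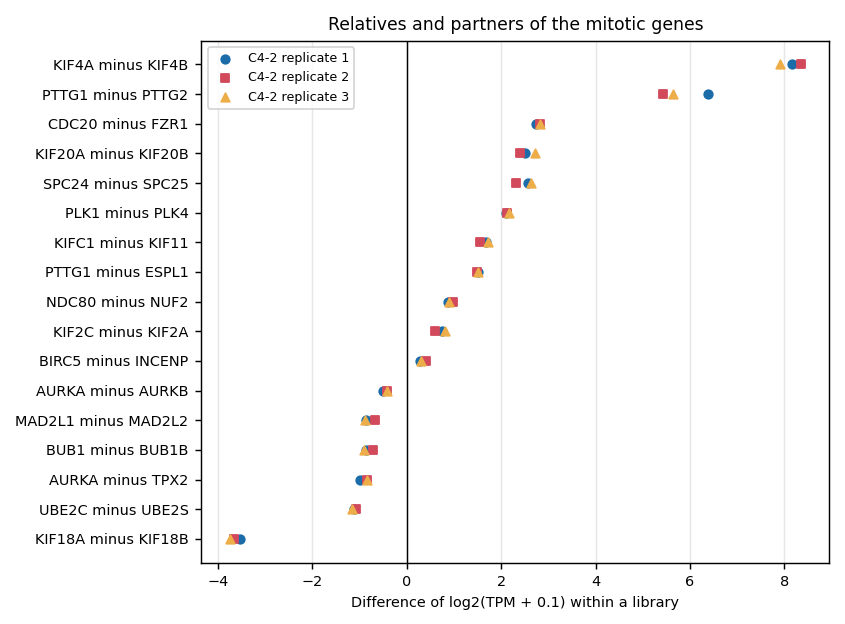
The horizontal axis gives the difference of log2(TPM + 0.1) between 2 genes in the same library, each row is a pair, and symbols are the 3 C4-2 libraries. All 17 pairs keep their sign in every library, from KIF4A minus KIF4B at 8.14 to KIF18A minus KIF18B at -3.65.

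Some mitotic genes differed between the 3 libraries by more than counting error. A chi-square test set the 3 counts of a gene against its library sizes, scaled by TMM factors, and its p-values were adjusted by Benjamini-Hochberg over the 21039 detected genes. It called 28 of the 43 genes at 0.05, against 46.1% of all detected genes and 57.1% of the 9613 genes within the mitotic genes' range of reads. Low counts were mostly even numbers (75.1% to 81.6% of genes with 1 to 20 reads, against 50.9% to 52.1% with 100 or more), the pattern of a count in which both mates of a fragment enter, and such counting makes the statistic 2 times as large. With the statistic divided by 2 the test called 15 of 43, against 17.6% of all detected genes and 26.3% of those 9613 genes. The undivided count was 12 without replicate 3, against 23.8% of all genes, 15 without replicate 2, against 23.8%, and 26 without replicate 1, against 32.7%. The divided count was 5 without replicate 3, against 6.56% of all genes, 2 without replicate 2, against 5.89%, and 17 without replicate 1, against 14.9%. Calls were most frequent, in the mitotic genes and in all genes, where replicates 2 and 3 were set against each other.

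HMMR, NDC80 and TTK stood out among the 43. HMMR had 3247, 3774 and 3037 reads in replicates 1, 2 and 3, and its divided statistic gave a chi-square adjusted p of 2.22e-12. NDC80 had 2577, 2742 and 2257 reads (chi-square adjusted p = 5.03e-06) and TTK 1352, 1409 and 1074 (chi-square adjusted p = 2.45e-05). All 3 were highest in replicate 2 and lowest in replicate 3. On the log2 CPM scale, replicate 2 exceeded replicate 3 by 0.43 for TTK, 0.36 for HMMR and 0.32 for NDC80. The other 12 calls were CDC20, INCENP, CENPF, DLGAP5, CENPN, KIF18B, ECT2, SPC24, KIF20B, BUB1, KIF11 and MAD2L1. Among these, CDC20 (-0.14), KIF18B (-0.14), INCENP (-0.13) and SPC24 (-0.10) were lower in replicate 2 than in replicate 3. Of the 43 genes, 21 (48.8%) had their highest value in replicate 2, against 35.0% of detected protein-coding genes.

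These differences moved with base composition. Across the 43 genes the log2 difference of replicate 2 minus replicate 3 had a Pearson r of -0.69 and a Spearman rho of -0.73 with exon GC content. Across the 10467 detected genes with a mean of 400 reads or more the same r was -0.55, and these correlations across genes of the same libraries are a description. Of the mitotic genes with exon GC below 40%, 11 of 12 were higher in replicate 2, against 87.6% of such genes overall. Between 40% and 50% GC it was 12 of 18, against 64.2%, and at 50% or more it was 2 of 13, against 21.2%. With libraries scaled within 20 bins of exon GC, an alternative chosen after seeing the data, the divided statistic called 5 of 43, against 9.30% of all genes. The share of the 43 was thus near that of all genes. Those 5 were HMMR (chi-square adjusted p = 5.16e-06), CENPN (0.00391), TTK (0.00657), NDC80 (0.0122) and KIF23 (0.0257), and CDC20 was not among them. KIF23 was called only with this scaling and not among the 15 above. Unlike the other calls, it was highest in replicate 3, and its replicate 2 minus replicate 3 was -0.10. The part of base composition in the differences was not tested beyond this scaling.

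**Figure D5:**
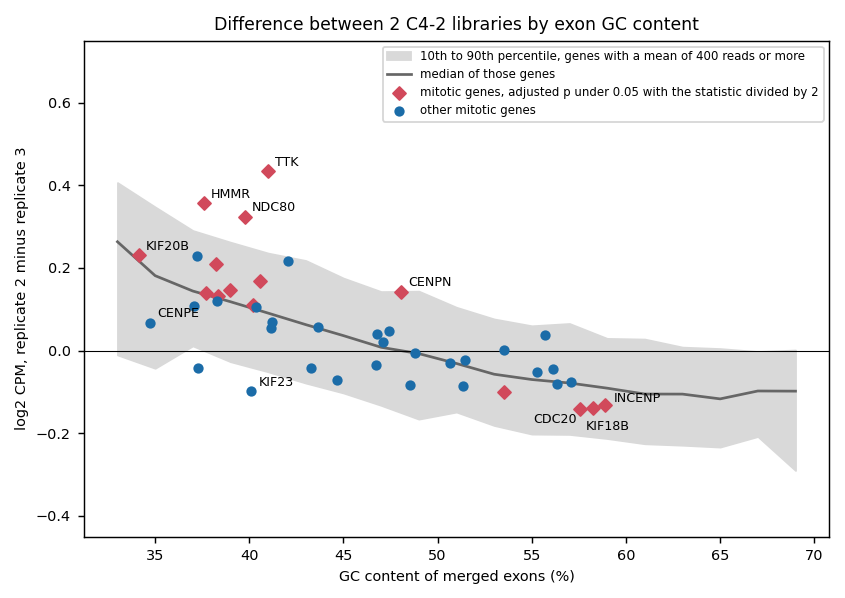
The horizontal axis gives the GC content of merged exons in percent and the vertical axis the log2 CPM of replicate 2 minus replicate 3. Red diamonds are the 15 mitotic genes called with the statistic divided by 2, blue points the other 28, the grey line the median and the band the 10th to 90th percentile of genes with a mean of 400 reads or more. Most mitotic genes follow the grey line (r = -0.69), and TTK at 0.43, HMMR at 0.36 and NDC80 at 0.32 lie above the band.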

How the data were processed

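Per the labels' protocols, Trizol-extracted RNA was cleaned on columns, depleted of ribosomal RNA and built into strand-specific libraries. Per the submitters' processing notes, FastQC, Trim Galore, STAR 2.7.0f and Subread 1.6.3 were used on GRCh38, and DESeq2 1.26.0 is also named. Per the file headers, the authors deposited unnormalised counts, made with featureCounts 1.6.3 over exons of Ensembl release 90. The recorded options leave the defaults, under which strand is ignored, reads that map to several places or to several genes are dropped, and mates are counted singly. Whether both ends were sequenced is not given in the sources used here.

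From these counts, TPM was computed over all genes with merged exon lengths. Symbols came from GENCODE release 44, which matched 57532 of 58302 identifiers. Library sizes were scaled with TMM factors (edgeR 4.0.16, R 4.3.3) or, as an alternative, size factors (DESeq2 1.42.0). The chi-square test was tried on simulated counts with counting error and a set of changed genes, entered singly or doubled. That simulation held no differences by GC content, so it does not show how the test behaves with them. Other steps used Python 3.11.15, numpy 2.4.6, pandas 2.3.3, scipy 1.17.1 and matplotlib 3.10.9. GC content was read from hg38 exons for 58243 genes, and promoters from RefSeq.

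All 43 genes are named. Of the other lists, the highest and lowest members and those of a pair are named, with ties at 0 reads also given. Promoters were printed for the highest gene with homology region letters in each role, up to 6. The genes, lists and pairs were chosen with earlier results of these data known, and they are no independent support for what was already seen. Alternatives were other scalings, filters, pseudocounts and lengths, and leaving out each library.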

Additional observations from a re-analysis of the deposited data

How the results depend on the processing

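The 43 mitotic genes were detected under each of the 5 alternatives run, and 41 to 42 of them reached 10 TPM. Detection asks for reads in every library, so the alternatives that left a library out could not lose a detected gene. Their median level was 95.1 TPM over protein-coding nuclear genes and 53.6 TPM with MANE Select lengths, a setting added after the data were seen, against 62.6 TPM. Its distance above protein-coding genes was 3.37 with MANE Select lengths, 3.31 with a pseudocount of 1 and 1.97 against detected genes alone, and 3.48 to 3.53 with a library left out. The genes called as varying numbered 28 with TMM factors (46.1% of all genes tested). The genes called numbered 27 with DESeq2 size factors (46.0%), total counts (46.2%) or no filter on low counts (38.2%). They numbered 15 with the statistic divided by 2 (17.6% of all genes) and 12 to 26 with a library left out (23.8% to 32.7% of all genes). Scaling in GC bins gave 17 (38.3% of all genes), and GC bins with division by 2 gave 5 (9.30% of all genes). With either GC setting the share of the 43 was near that of all genes. Fewer libraries enter the test when a library is left out. Of 102 alternatives for the 17 pairs, 101 kept the direction, and PTTG1 minus ESPL1 turned to -0.63 as CPM, where no length is divided out. Leaving out a library or raising the pseudocount could not turn a sign, because every pair kept its sign in all 3 libraries. Only CPM and MANE Select lengths could do so. As CPM, AURKA minus AURKB was -0.06 and MAD2L1 minus MAD2L2 was -0.02. Libraries could not be paired between conditions because all of them belong to 1 group. With 3 libraries the exact sign-flip test cannot pass 0.05, and genes at few reads, such as KIF4B, are limited by depth.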
